A study of Mus musculus with 6 samples.

Results

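A set of 9 miRNAs best known from neurons or from hormone-secreting cells was followed in the small intestinal mucosa of mice with and without the circular RNA Cdr1as. They were mmu-miR-375-3p, mmu-miR-9-5p, mmu-miR-9-3p, mmu-miR-124-3p, mmu-miR-128-3p, mmu-miR-129-5p, mmu-miR-137-3p, mmu-miR-138-5p and mmu-miR-153-3p, picked by name from the 1831 miRNAs of the deposited table and not by their values. All 9 members were in the table. RNA of 6 samples was hybridized to 6 one-colour arrays, 3 from wild-type littermates and 3 from Cdr1as-/- mice. According to the methods, the deletion was made on the C57BL/6J background by injecting Cas9 with a pair of guide RNAs into embryos, so that it is not restricted to the epithelium, and the animals were deprived of food, with tap water, before experiments. The ages of these mice are not given in the sources used here, and the arrays carry no measurement of Cdr1as with which to check the genotype. Values below are the authors' normalized log2 values, in which each miRNA is the log2 of the mean unlogged value of its 1 to 5 probes.

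A miRNA loads into an Argonaute protein and lowers the output of mRNAs that pair with its seed, bases 2 to 8 of the mature strand. miR-375 is abundant in pancreatic islets and in the enteroendocrine cells that lie scattered through the gut epithelium, and it is known for restraining hormone secretion. miR-9 and miR-124 accompany neuronal differentiation, miR-128, miR-137 and miR-138 are enriched in brain and act in neuronal excitability, chromatin control and dendritic spine growth, and miR-129 and miR-153 are found in neurons and neuroendocrine cells, with miR-153 encoded inside Ptprn2, a gene for a protein of secretory granules. The mucosa holds enteroendocrine cells and the fibres of enteric neurons among far more numerous epithelial, immune and stromal cells. In RNA from whole mucosa, fewer cells of a type cannot be told apart from less RNA per cell.

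Mature sequences of 7 members were found in RefSeq (GRCm38.p6), and each was identical to the sequence in the deposited table. They are printed because the seed, in capitals, decides which miRNAs can share targets. 
miR-9-5p: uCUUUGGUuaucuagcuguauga
miR-9-3p: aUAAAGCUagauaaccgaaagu
miR-128-3p: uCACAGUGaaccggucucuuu
miR-129-5p: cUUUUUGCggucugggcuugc
miR-137-3p: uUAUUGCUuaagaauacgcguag
miR-138-5p: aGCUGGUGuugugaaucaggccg
miR-153-3p: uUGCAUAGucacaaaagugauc
No seed was common to any pair of these 7. miR-9-5p and miR-9-3p are the opposite arms of the same hairpins.

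Several members come from more than 1 locus and the array cannot tell such copies apart. Mature miR-9-5p is encoded on the plus strand at chr3:88215613-88215635 (Mir9-1, within the bounds of Gm3764), chr7:79505279-79505301 (Mir9-3, within Mir9-3hg) and chr13:83738821-83738843 (Mir9-2, within C130071C03Rik), all in GRCm38.p6. miR-128-3p lies within the protein-coding genes R3hdm1 (chr1:128202404-128202424, plus strand) and Arpp21 (chr9:112118644-112118664, minus strand). miR-153-3p lies at chr12:117250860-117250881 on the plus strand, within the bounds of Ptprn2. miR-138-5p is encoded within Nup93 at chr8:94324312-94324334 and outside annotated gene bounds at chr9:122682898-122682920, and miR-137-3p at chr3:118433901-118433923 is outside annotated gene bounds, all 3 on the plus strand.

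One array stood apart before any comparison was made. On littermate 3, all probes for miRNAs (100%) were scored well above background by the scanner software and their median signal was 236, against medians of 8.75 to 29.2 on the other 5 arrays. After normalization, the values of littermate 3 deviated from the mean of littermates 1 and 2 with an SD of 1.71 over all 1831 miRNAs. For Cdr1as-/- mice 1, 2 and 3 this SD was 0.79, 0.46 and 0.53. Results are therefore given with all 6 arrays and with littermate 3 left out. The 5 arrays other than littermate 1 share 1 scan identifier, so that a difference of scan and this mouse cannot be told apart. The labels name no litter, day or batch for the mice, and the p-values measure the spread between these 6 samples, which may be technical in part.

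The miRNAs well above background on every array were miR-375-3p, miR-128-3p, miR-137-3p, miR-138-5p and miR-153-3p. That is 5 of 9 (55.6%), close to the 1039 of 1831 (56.7%) of all miRNAs in the table, so that as a group the members were measured on the arrays about as often as any miRNA. Here a miRNA counts as above background if at least 1 of its probes does. Per array, the littermates had 8, 9 and 9 of the members above background, and the Cdr1as-/- mice had 9, 5 and 9. The fall to 5 in Cdr1as-/- mouse 2 was general, since that array had 1042 of 1831 miRNAs above background and the others had 1637 to 1831. In littermate 3 and Cdr1as-/- mouse 1 all 1831 miRNAs were above background, with 96.8% of the miRNA probes in the latter. A member above background on these arrays is therefore not set apart from any other miRNA.

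**Figure D1:**
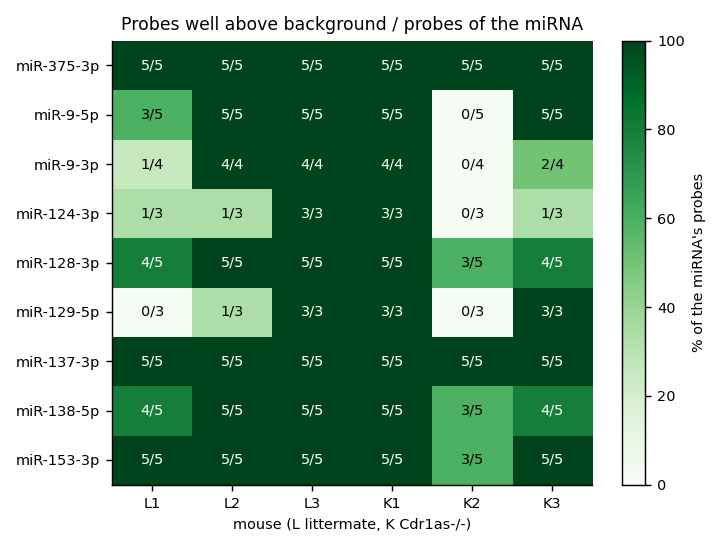
Number of probes scored well above background, out of all probes of each miRNA (rows), on the 6 arrays (columns; L, littermate; K, Cdr1as-/-), with the colour giving the same as a percentage. miR-375-3p and miR-137-3p had 5 of 5 probes above background on every array, whereas miR-9-5p, miR-9-3p, miR-124-3p and miR-129-5p had 0 in Cdr1as-/- mouse 2.

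miR-375-3p and miR-137-3p were the best measured, with 5 of 5 probes above background on each array. miR-9-5p, an inducer of neuronal fate, had 3, 5 and 5 of its 5 probes above background in the littermates and 5, 0 and 5 in the Cdr1as-/- mice. The opposite arm miR-9-3p had 1, 4 and 4 of 4 probes above background in the littermates and 4, 0 and 2 in the Cdr1as-/- mice. For miR-124-3p, a very abundant miRNA of neurons, the littermates had 1, 1 and 3 of 3 probes above background, against 3, 0 and 1 for the Cdr1as-/- mice. miR-129-5p had 0, 1 and 3 of 3 probes above background in the littermates and 3, 0 and 3 in the Cdr1as-/- mice, and it was the 1 member that no group measured on all of its arrays.

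The last 3 of these miRNAs also reached the lowest value of the normalized table most often. On 4 of the arrays the deposited probe values have a shared minimum that takes in scanner signals up to 5, and values at this minimum have no order. It held 6 of the 24 probe values of miR-9-3p, 8 of the 18 of miR-124-3p (including all of those in Cdr1as-/- mouse 2) and 7 of the 18 of miR-129-5p (including all of those in littermate 1). Of the other members, miR-128-3p had 3 of 30 probe values at the minimum and miR-9-5p and miR-138-5p 1 each. The neuronal miRNAs miR-124-3p and miR-129-5p were thus near the limit of what the arrays measured in this mucosa, and their values have an order between mice only where they lie above it.

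The endocrine member mmu-miR-375-3p had normalized log2 values of 8.27, 8.47 and 5.01 in the littermates, in the order of their numbers, and of 6.87, 8.18 and 7.88 in the Cdr1as-/- mice. Littermate 3 was the lowest of all 6 and Cdr1as-/- mouse 1 the next lowest, and the groups overlapped. The group means were 7.25 ± 1.94 (SD, n = 3) and 7.64 ± 0.69 (SD, n = 3). The log2 difference, Cdr1as-/- minus littermates, was 0.39 with a standard error of 0.98 and a 95% confidence interval from -2.01 to 2.79. With littermate 3 left out, the sign turned: the difference was -0.73 with a standard error of 0.38, an interval from -1.59 to 0.13, and an adjusted p of 0.372 (limma). Both remaining littermates were then above all 3 Cdr1as-/- mice, and 4 of the 5 probes were lower in the Cdr1as-/- mice, with probe differences from -0.85 to 0.07.

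**Figure D2:**
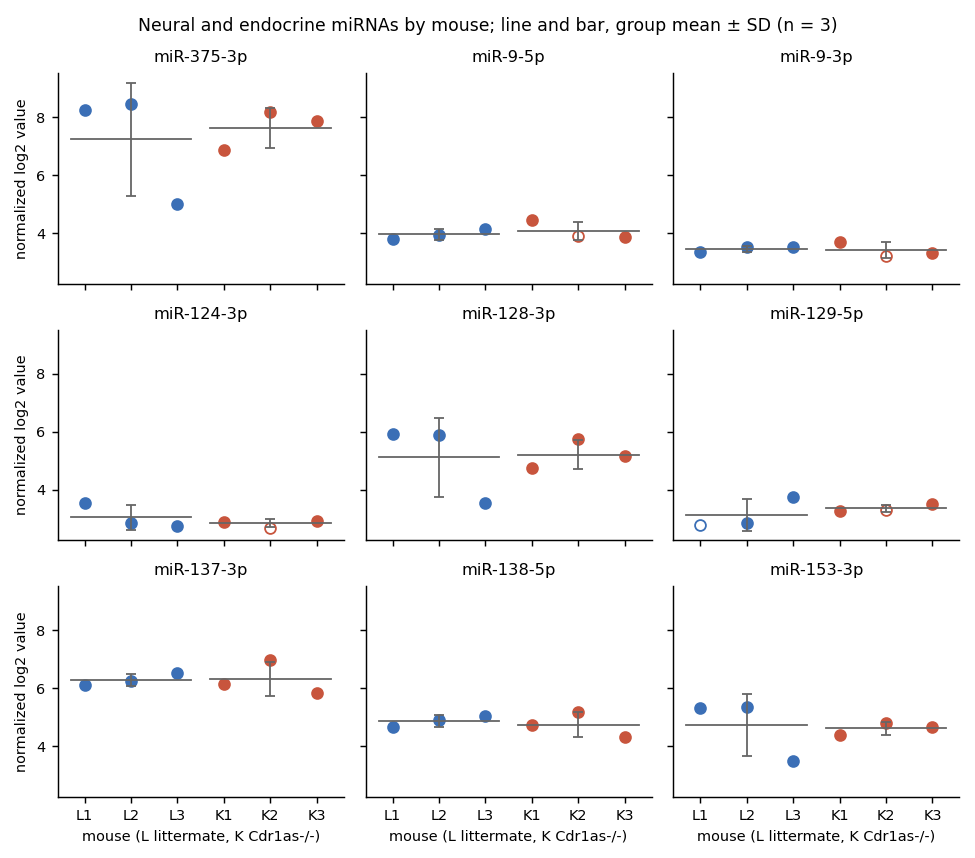
Normalized log2 value of the 9 miRNAs (panels, 1 common vertical axis) in the 3 littermates (L, blue) and 3 Cdr1as-/- mice (K, red), with open symbols where no probe was well above background and lines and bars for the mean ± SD of each group. Littermate 3 is the lowest point for miR-375-3p, miR-128-3p and miR-153-3p, at 5.01, 3.56 and 3.48, and lies among the other points for miR-138-5p and miR-9-3p.

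Of the neuronal members, mmu-miR-128-3p showed the same order of mice as miR-375-3p, apart from littermates 1 and 2, which lay close together. This brain-enriched miRNA, which dampens neuronal excitability, had log2 values of 5.93, 5.89 and 3.56 in the littermates and of 4.75, 5.74 and 5.15 in the Cdr1as-/- mice. Its log2 difference was 0.09 (standard error 0.71, 95% confidence interval -1.63 to 1.81) with all 6 arrays. With littermate 3 left out it was -0.70 (standard error 0.31, interval -1.41 to 0.02, adjusted p = 0.366 by limma), and 5 of 5 probes were then lower in the Cdr1as-/- mice.

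mmu-miR-153-3p, which is known for repressing proteins of synaptic and secretory vesicles, was the 1 tested member whose deposited values gave an unadjusted p below 0.05 without littermate 3. Its log2 values were 5.31, 5.36 and 3.48 in the littermates and 4.37, 4.79 and 4.67 in the Cdr1as-/- mice. With all 6 arrays the log2 difference was -0.11 (standard error 0.55, 95% confidence interval -1.45 to 1.23). With littermate 3 left out it was -0.73 (standard error 0.24, interval -1.27 to -0.18), with an unadjusted p of 0.0148 and an adjusted p of 0.258 (limma). With 75th percentile scaling of the scanner signals, also without littermate 3, its unadjusted p was 0.0507 (limma). That of miR-124-3p was then 0.0325 with a log2 difference of -0.90 and an adjusted p of 0.295 (limma). However, miR-124-3p was tested only because all 3 littermates had a probe above background, and 8 of its 18 deposited probe values lay at the shared minimum of their array. Its p was therefore not read as a difference between genotypes. All 5 probes of miR-153-3p were lower in the Cdr1as-/- mice in the deposited values without littermate 3, by differences from -0.87 to -0.53.

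For these 3 miRNAs littermates 1 and 2 were highest, in either order, followed by Cdr1as-/- mice 2, 3 and 1 and, lowest, littermate 3. This order was found for 179 of the 1634 miRNAs tested (10.95%), and 403 (24.7%) were lowest in littermate 3. The order of the arrays by scanner signal was different. Before normalization, the miR-375-3p probes had mean signals of 127, 177 and 360 in the littermates, against 217, 157 and 140 in the Cdr1as-/- mice, so that littermate 3 and Cdr1as-/- mouse 1, lowest after normalization, had the strongest signals. The same 2 arrays were the brightest for miR-128-3p (102 and 38.8) and for miR-153-3p (97.7 and 27.9), and they had the highest median signals over all miRNA probes. The part of array brightness in the order of the mice was not tested.

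**Figure D3:**
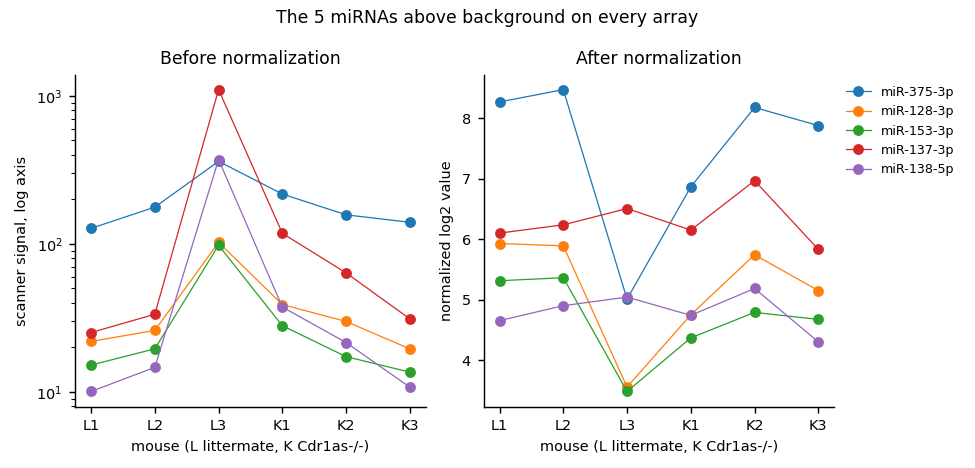
Mean scanner signal of the probes (left, arbitrary units on a log axis) and normalized log2 value (right) of the 5 miRNAs above background on every array, by mouse (L, littermate; K, Cdr1as-/-); lines join the values of 1 miRNA and carry no order in time. Littermate 3 had the highest scanner signal for all 5 miRNAs, and after normalization the lowest value for miR-375-3p, miR-128-3p and miR-153-3p.

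The probes of these miRNAs also lay closer together on littermate 3. The 5 probes of miR-375-3p ran from 4.91 to 9.63 in littermate 1 and from 5.07 to 9.84 in littermate 2, but from 4.47 to 5.68 in littermate 3. In the Cdr1as-/- mice they ran from 5.08 to 8.18, from 5.17 to 9.53 and from 4.94 to 9.23. The probes of miR-128-3p likewise ran from 3.21 to 3.84 in littermate 3, against 2.80 to 6.997 in littermate 1 and 3.20 to 6.91 in littermate 2. For both miRNAs, littermate 3 therefore differed most from the other mice on those probes that read highest elsewhere.

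**Figure D4:**
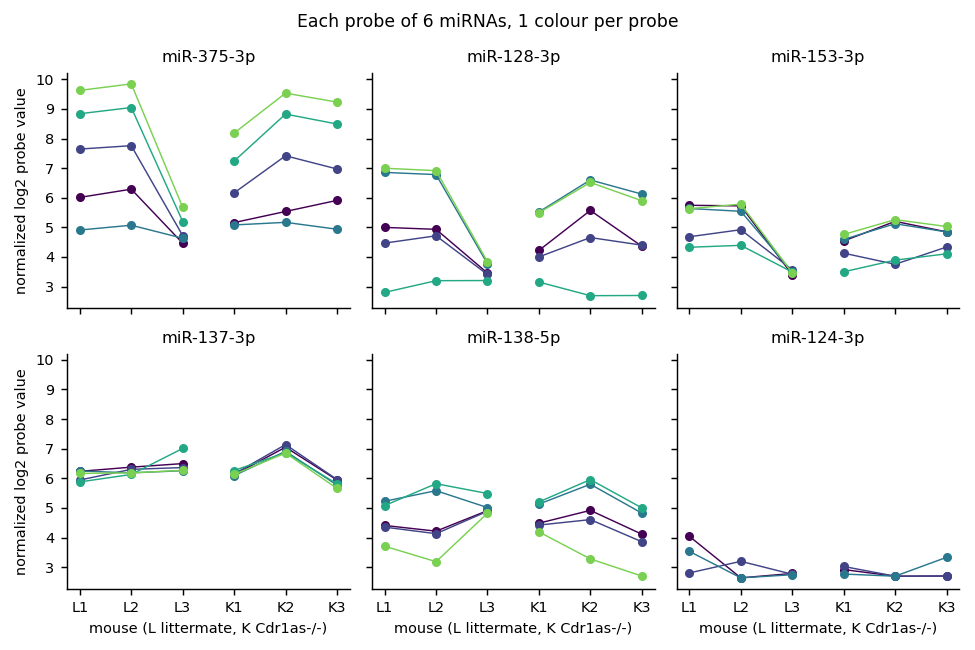
Normalized log2 value of each probe (1 colour per probe, lines joining the mice of 1 group) of 6 miRNAs in the 3 littermates (L) and 3 Cdr1as-/- mice (K). The probes of miR-375-3p ran from 4.47 to 5.68 in littermate 3 and reached 9.84 in littermate 2, whereas those of miR-137-3p stayed between 5.66 and 7.14 on all arrays.

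mmu-miR-137-3p and mmu-miR-138-5p behaved differently from the 3 above. miR-137-3p, a regulator of neural stem cells and synaptic genes, had log2 values of 6.10, 6.24 and 6.51 in the littermates and of 6.15, 6.97 and 5.83 in the Cdr1as-/- mice. Littermate 3 was not set apart, the highest and the lowest value were both in the Cdr1as-/- group, and the groups overlapped. The means were 6.28 ± 0.21 and 6.32 ± 0.59 (SD, n = 3 each), and the log2 difference was 0.04 (standard error 0.35, 95% confidence interval -0.83 to 0.90). With littermate 3 left out it was 0.15 (adjusted p = 0.805 by limma).

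miR-138-5p, which limits the size of dendritic spines, had log2 values of 4.65, 4.90 and 5.04 in the littermates and of 4.74, 5.19 and 4.30 in the Cdr1as-/- mice. As for miR-137-3p, the highest value was that of Cdr1as-/- mouse 2 and the lowest that of Cdr1as-/- mouse 3. The log2 difference was -0.12 (standard error 0.30, interval -0.86 to 0.62), and -0.03 without littermate 3 (adjusted p = 0.946 by limma). The intervals of both miRNAs leave differences of either sign within the error of the 6 arrays. The scanner signal of littermate 3 was 1100 for miR-137-3p and 371 for miR-138-5p, against 25.1 to 118 and 10.1 to 37.4 on the other arrays.

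For miR-9-5p the log2 values were 3.80, 3.96 and 4.17 in the littermates and 4.45, 3.90 and 3.89 in the Cdr1as-/- mice, where the second was not above background. The log2 difference was 0.10 (standard error 0.27, 95% confidence interval -0.54 to 0.75). Its opposite arm miR-9-3p had log2 values of 3.35, 3.53 and 3.54 in the littermates and of 3.72, 3.22 and 3.33 in the Cdr1as-/- mice, with a difference of -0.05 (standard error 0.24, interval -0.64 to 0.54). Both arms were highest in Cdr1as-/- mouse 1 and neither separated the genotypes.

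For miR-124-3p the log2 values were 3.54, 2.85 and 2.76 in the littermates and 2.91, 2.69 and 2.94 in the Cdr1as-/- mice. Littermate 1 was the highest, and the other 5 mice lay between 2.69 and 2.94. The log2 difference was -0.20 (standard error 0.29, interval -0.92 to 0.51) with all 6 arrays and -0.35 without littermate 3 (adjusted p = 0.453 by limma). miR-129-5p, at 2.80, 2.84 and 3.76 in the littermates and 3.26, 3.31 and 3.50 in the Cdr1as-/- mice, did not pass the filter on dim miRNAs. Without that filter its log2 difference was 0.23 (interval -0.56 to 1.02), and 0.54 without littermate 3, when both littermates were below the 3 Cdr1as-/- mice. All probe values of littermate 1, and all but 1 in littermate 2 and in Cdr1as-/- mouse 2, lay at the shared minimum of their array. The remaining probe of Cdr1as-/- mouse 2 read 4.08 and was not above background. This separation was therefore not read as a difference. Of the 8 members that passed the filter, miR-9-5p, miR-9-3p and miR-124-3p did so through the littermates alone.

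No member differed between genotypes after adjustment. With all 6 arrays, 0 of the 1634 miRNAs tested (0.0%) had an adjusted p below 0.05 (limma with Benjamini-Hochberg adjustment), and each of the 8 tested members had an adjusted p of 0.999966. Before adjustment, 6 miRNAs (0.367%) had a limma p below 0.05, none of them a member. The methods' t-test, unadjusted, called 19 lower and 2 higher, and none remained after Benjamini-Hochberg adjustment. The exact two-sided permutation p of the members was between 0.5 and 1.0, where 3 mice against 3 allow no p under 0.1. The groups overlapped for all 9 members, and they did not overlap for 51 of the miRNAs tested (3.12%). The members' median log2 difference was -0.01, with 4 lower and 4 higher, beside a median of -0.07 over all miRNAs tested.

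With littermate 3 left out, the unadjusted limma p was below 0.05 for 191 miRNAs that were lower (11.7%) and 36 that were higher in the Cdr1as-/- mice. After adjustment 0 passed, with a smallest adjusted p of 0.174 (limma). One of the 8 tested members, miR-153-3p, was among the lower ones. The groups then did not overlap for 3 of the 8, miR-375-3p, miR-128-3p and miR-153-3p, all of them lower in the Cdr1as-/- mice. Over all miRNAs tested, 355 (21.7%) lay below and 341 (20.9%) above the littermates without overlap. In this comparison of 2 mice against 3 the smallest exact p is 0.2, which was the value for these 3 miRNAs. The median log2 difference of the 8 members was -0.19, with 6 lower and 2 higher, beside 0.10 over all tested. The sign of the latter depends on the scaling, since with 75th percentile scaling it was -0.12. Of the 6 lower members, miR-9-3p and miR-124-3p were tested through the littermates alone, so that the count was not read as a difference.

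**Figure D5:**
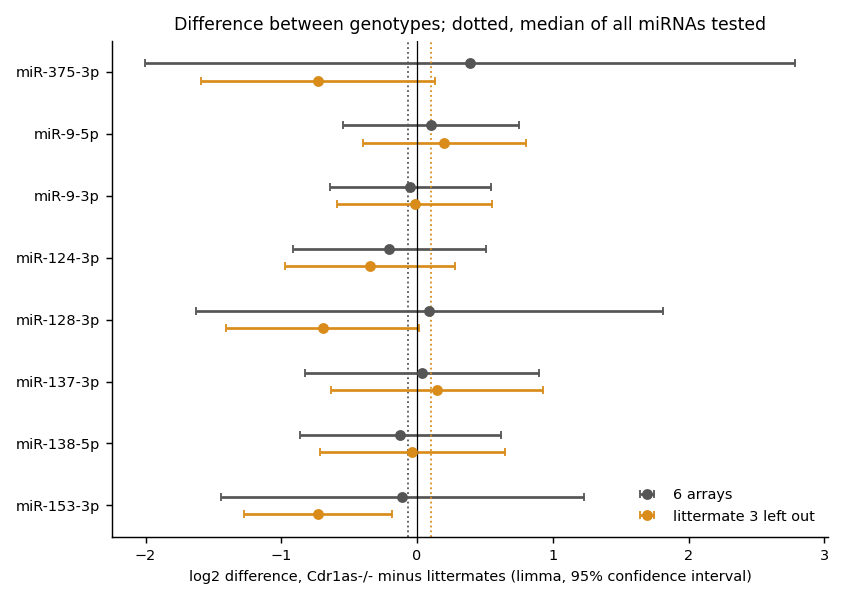
Log2 difference, Cdr1as-/- minus littermates, of the 8 tested miRNAs with its 95% confidence interval from limma, for all 6 arrays (grey) and with littermate 3 left out (orange); dotted lines mark the median of the 1634 miRNAs tested, at -0.07 and 0.10. Every interval from the 6 arrays spans 0, and with littermate 3 left out that of miR-153-3p, from -1.27 to -0.18, does not.

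The opposite arms of the members' hairpins gave a second look at the same transcripts. Of 10 such arms in the table, 7 were tested and 3 were above background on every array, and 0 differed after adjustment, with a median log2 difference of 0.04 (-0.07 without littermate 3). miR-375-5p, like miR-375-3p, was lowest in littermate 3 and next lowest in Cdr1as-/- mouse 1, at 4.73, 4.78 and 3.23 in the littermates and 3.50, 4.07 and 4.03 in the Cdr1as-/- mice. With all 6 arrays its log2 difference was -0.38, opposite in sign to the 0.39 of miR-375-3p. Without littermate 3 it was -0.89 (standard error 0.26), with an unadjusted p of 0.0083 and an adjusted p of 0.238 (limma). However, miR-375-5p was above background in all 3 littermates and in only 2 of the Cdr1as-/- mice. It was thus tested through the littermates alone, the group in which it was higher, and its p was not read as a difference. The 2 arms opposite miR-128-3p did not move with it: miR-128-2-5p, the better measured, had 5.28, 5.51 and 6.70 in the littermates and 6.32, 5.23 and 6.06 in the Cdr1as-/- mice.

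A wider list of 16 neural and endocrine miRNAs, among them the miR-7, miR-132, miR-212 and miR-219 families, held 15 that were tested and 9 above background on every array. With all 6 arrays, 0 differed before or after adjustment, 8 were lower and 7 higher in the Cdr1as-/- mice, and the median log2 difference was -0.04. With littermate 3 left out, 11 of the 15 were lower, against 42.6% of all miRNAs tested, and the median was -0.15. Of these 11, miR-212-5p, miR-485-5p, miR-488-3p and miR-873a-5p were tested through the littermates alone. So were miR-135a-5p and miR-383-5p among the higher ones. The count was therefore not read as a difference. Over all miRNAs tested the median was 0.10, or -0.12 with 75th percentile scaling, so that the share of lower ones depends on the scaling. Of the 15, 3 were lower with an unadjusted p below 0.05 (limma), beside 191 of the 1634 miRNAs tested (11.7%). Counted among the lower miRNAs alone, these were 3 of 11 in the list and 191 of 696 over all tested. None passed after adjustment. The 3 were miR-132-5p (-0.76), miR-212-3p (-1.31) and miR-219a-5p (-0.98), of which the first 2 come from neighbouring hairpins induced by neuronal activity and the third is known from oligodendrocytes. miR-212-3p had log2 values of 7.05, 6.63 and 4.59 in the littermates and of 5.09, 6.11 and 5.38 in the Cdr1as-/- mice, and its difference without littermate 3 had an adjusted p of 0.238 (limma).

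The seeds of the 7 members with a printed sequence were searched among all miRNAs of the table, and 1 other miRNA carried one of them, miR-6539 with that of miR-128-3p. Its log2 values were 6.08, 6.05 and 5.89 in the littermates and 5.63, 5.62 and 5.73 in the Cdr1as-/- mice, so that here littermate 3 was close to the other littermates. Its log2 difference was -0.35 with all 6 arrays and -0.41 without littermate 3. The groups did not overlap with all 6 arrays, as for 51 of the 1634 miRNAs tested (3.12%). Like every miRNA tested, miR-6539 did not pass after adjustment.

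For each member above background on every array, the miRNAs of most similar pattern were found as those with the smallest root mean square difference of centred log2 values over the 6 arrays, among 1038 others. For miR-375-3p they were miR-1839-3p (0.11) and let-7j (0.11). For miR-128-3p they were miR-532-5p (0.06) and miR-30a-3p (0.07), and for miR-153-3p miR-181c-3p (0.07) and miR-12195-3p (0.08). miR-137-3p was nearest to miR-144-5p (0.07) and miR-6933-5p (0.11), and miR-138-5p to miR-126a-5p (0.03) and miR-18b-5p (0.09). The median difference from any other miRNA was 1.42 for miR-375-3p and 0.56 for miR-138-5p, and the 6 values share each array's brightness.

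Markers of the other cells of the tissue were read from the same arrays. All 8 epithelial miRNAs (miR-192, miR-194, miR-215 and the miR-200 family) were above background on every array, and none was at 0. Their summed level was 16.0 to 17.2 on the log2 scale in the littermates and 17.05 to 17.2 in the Cdr1as-/- mice. All 6 immune miRNAs were above background on every array, with a summed level of 9.25 to 12.6 in the littermates and 12.03 to 12.9 in the Cdr1as-/- mice. For the 5 smooth muscle miRNAs, also above background throughout, the sums were 7.12 to 11.2 in the littermates and 10.01 to 12.5 in the Cdr1as-/- mice.

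In each of these lists littermate 3 gave the lowest sum. It was the lowest array for 8 of 8 epithelial, 5 of 6 immune and 4 of 5 smooth muscle miRNAs. Relative to littermates 1 and 2, their medians were -2.96, -3.54 and -2.66 log2 units. Over all 1634 miRNAs tested this median was 0.43, and 403 were lowest in littermate 3. The sum over all tested was highest there, at 20.05 against 18.70 to 18.85 on the other arrays. The low values of miR-375-3p, miR-128-3p and miR-153-3p in littermate 3 therefore went with low values of most markers of these 3 cell types. The exceptions were miR-155-5p, at 7.58 in littermate 3 and 7.01 to 7.46 elsewhere, and miR-133a-3p, at 5.10 and 5.01 to 5.64. Of the erythroid miRNAs, 2 of 3 were above background on every array. The sum of the 3 was 6.77 to 10.1 in the littermates, highest in littermate 1, and 7.61 to 8.18 in the Cdr1as-/- mice. The dimmer miR-486a-5p went the other way, at 3.61 in littermate 1 and highest in littermate 3, at 5.77. Without littermate 3, the epithelial sums of the 5 mice lay within 17.05 to 17.2, while the immune sums were 12.5 and 12.6 in the littermates and 12.1, 12.9 and 12.03 in the Cdr1as-/- mice. Taken singly, 6 of 6 immune miRNAs (median log2 difference -0.32) and 7 of 8 epithelial miRNAs (median -0.14) were then lower in the Cdr1as-/- mice. So were 6 of the 8 tested members (median -0.19) and 1 of 5 smooth muscle miRNAs (median 0.27). Of these 6 members, miR-9-3p and miR-124-3p were tested through the littermates alone. The 3 members miR-375-3p, miR-128-3p and miR-153-3p were singled out as lower from these same data, so that their direction here is no separate result. Over all miRNAs tested, 42.6% were lower, with a median of 0.10, or of -0.12 with 75th percentile scaling. The part of cell composition in the lower values of the 3 members was not tested.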

How the data were processed

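Total RNA of the small intestinal mucosa was labelled with Cy3 at the 3′ end and hybridized to 1-colour arrays, 1 per mouse (3 littermates, 3 Cdr1as-/- mice). A miRCURY LNA array is named in the methods, but the scanner files are output of Agilent Feature Extraction 11.0.1.1. The authors deposited spot intensities with local background subtracted, normalized log2 values per probe, and normalized log2 values per miRNA. How the normalization was done is not given in the sources used here. The comparison columns (fold changes and p-values) were not used.

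Each deposited miRNA value was matched to its probes as the log2 of their mean unlogged value (8437 probes, largest difference 5.0e-09). No pseudocount was added. The deposited miRNA values were fitted with limma 3.58.1 (lmFit and eBayes, R 4.3.3), all 6 arrays in 1 fit with no covariate, with Benjamini-Hochberg adjustment over 1634 miRNAs, those for which each array of 1 or both groups had a probe scored well above background. Single values were compared by exact two-sided permutation. Array number limits the precision. Python 3.11.15, NumPy 2.4.6, pandas 2.3.3, SciPy 1.17.1 and matplotlib 3.10.9 were used for the rest.

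The members, the lists of related and marker miRNAs, and the rule for naming miRNAs (members, lists, carriers of a member's seed, and the 2 nearest patterns of each member above background on every array) were chosen with earlier results of these data known. Alternatives were 75th percentile scaling, normexp with an offset of 50, the brightest probe, other filters, the methods' t-test, an intensity trend, replicate, scan and array row blocks, and each mouse left out. Of them, the scan and array row blocks and the combinations with littermate 3 left out were chosen after seeing the data.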

Additional observations from a re-analysis of the deposited data

How the results depend on the processing

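No alternative gave a miRNA with an adjusted p below 0.05, and each of the 8 tested members changed sign under at least 1 alternative. At an unadjusted p below 0.05 the numbers of lower and of higher miRNAs were 4 and 2 with all 6 arrays. They were 2 and 0 with 75th percentile scaling over detected probes, 4 and 1 over all probes, 8 and 2 with normexp, 3 and 1 with the brightest probe, 2 and 1 among miRNAs above background on all arrays, 19 and 2 with the methods' t-test, and 8 and 0 with an intensity trend. Leaving out 1 mouse gave 0 to 191 lower and 0 to 36 higher, the highest without littermate 3. Without Cdr1as-/- mouse 2 they were 7 and 14, and without mouse 1 or 3 of that group 0 and 1. Without littermate 1, which equals the scan as a block, they were 3 and 0, and without littermate 2, 3 and 1. Of the combinations chosen after seeing the data, 75th percentile scaling without littermate 3 gave 224 and 47, and the methods' t-test without it 127 and 38. The 75th percentile scalings moved the median log2 difference over all miRNAs from -0.07 to -0.23 and -0.13, and without littermate 3 from 0.10 to -0.12.

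With the replicate number as a block, 1 miRNA was lower and 2 higher, and the members' differences kept their values. The numbers pair no samples in the labels, and the deviations of same-numbered samples correlated at -0.78, 0.58 and -0.24. A slide block was planned but not run, since the headers name no slide. The array row as a block, in which Cdr1as-/- mouse 1 alone meets the 3 littermates, gave 1 and 2.

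The members' log2 differences with 1 mouse left out ran from -0.73 to 1.001 for miR-375-3p, -0.70 to 0.49 for miR-128-3p, -0.73 to 0.21 for miR-153-3p, -0.29 to 0.28 for miR-137-3p, -0.34 to 0.10 for miR-138-5p, -0.080 to 0.20 for miR-9-5p, -0.20 to 0.053 for miR-9-3p, and -0.35 to 0.041 for miR-124-3p. The sign of the value with 6 arrays also turned under the array row block (miR-375-3p -0.38, miR-128-3p -0.37, miR-9-3p 0.25, miR-137-3p -0.13), the scan block (miR-124-3p 0.041, miR-137-3p -0.055, miR-153-3p 0.19), the brightest probe (miR-9-5p -0.060, miR-9-3p 0.17, miR-137-3p -0.025, miR-153-3p 0.057), and 75th percentile scaling over detected probes (miR-9-5p -0.13, miR-137-3p -0.11) or all probes (miR-9-5p -0.024, miR-137-3p -0.0086). Without littermate 3, the methods' t-test rests on -0.73 for miR-375-3p and -0.70 for miR-128-3p, and 75th percentile scaling gave -0.77, -0.69 and, for miR-9-5p, -0.11. The last setting also gave -0.81 for miR-153-3p, which no longer passed unadjusted. It gave -0.90 for miR-124-3p (adjusted p = 0.295, limma) and -0.41 for miR-9-3p, both tested through the littermates alone. The cause of these changes was not tested.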

Other observations

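miR-137-5p, the opposite arm of miR-137-3p, had a log2 value of 7.45 in littermate 1 and of 3.45 to 4.99 in the other 5 mice. That value rested on 1 of its 5 probes, which read 9.71 in littermate 1 and 3.55 to 5.29 elsewhere, while the other 4 probes read 2.80 to 3.55 in littermate 1. miR-137-3p was not set apart in littermate 1, with all 5 probes between 5.88 and 6.25 there. The erythroid miRNA miR-451a was also highest in littermate 1, at 9.95, against 5.40 to 8.03 in the other mice. Likewise miR-144-3p was highest there, at 6.25. The third erythroid miRNA went the other way: miR-486a-5p was at 3.61 in littermate 1 and highest in littermate 3, at 5.77.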
